A study of Mus musculus with 36 samples.

Results

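The 10 genes described here, *Dnmt1*, *Dnmt3a*, *Dnmt3b*, *Tet1*, *Tet2*, *Tet3*, *Asxl1*, *Ezh1*, *Ezh2* and *Kmt2a*, encode DNA methylation and histone modifiers linked to clonal hematopoiesis. They were picked by symbol from the 38887 Ensembl genes of the count table, and each of the 10 was found and passed the filter on low counts in every fit. RNA was sequenced from 5000 FACS-sorted bone marrow (BM) cells per library, in 17 libraries of long-term hematopoietic stem cells (LT-HSC, CD150-positive and CD48-negative) and 19 of HPC-1, more committed CD150-negative, CD48-positive progenitors that the labels name ST-HSC. All mice lacked *Apoe*, were fed a Western diet for 12 weeks from 8 weeks of age, and were infused over 2 weeks with PBS or with Ang II (angiotensin II) at 800 ng/kg/min. The interleukin receptor gene *Il27ra* was present in intact form (WT in the labels, so *Apoe*-/-), as *Apoe*-/-*Il27ra*+/- (Het) or as *Apoe*-/-*Il27ra*-/- (KO), and no group had intact *Apoe*. LT-HSC after PBS came as 1 WT, 3 Het and 3 KO libraries and after Ang II as 2 WT, 4 Het and 4 KO libraries. HPC-1 after PBS came as 2 WT, 3 Het and 3 KO libraries and after Ang II as 3 WT, 4 Het and 4 KO libraries. Libraries held 1.98 to 6.86 M counts (median 2.56 M in LT-HSC and 3.25 M in HPC-1). The labels do not link libraries to mice, and the mouse numbers in the published description differ from the library numbers of some groups, so each p-value measures the spread between libraries only.

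Clonal hematopoiesis is the expansion of blood cells that descend from a single mutated stem cell, and *DNMT3A*, *TET2* and *ASXL1* are the genes mutated most often in people who have it. DNMT3A and DNMT3B place new methyl groups on cytosine, whereas DNMT1 copies existing marks onto the daughter strand when DNA is replicated. The TET enzymes oxidize methylcytosine, which starts its removal. EZH1 and EZH2 are alternative catalytic subunits of the Polycomb repressive complex that methylates histone H3, ASXL1 is a partner of the histone deubiquitinase BAP1, and KMT2A (MLL) is an activating histone methyltransferase needed for *Hox* gene expression in stem cells. Loss of *Dnmt3a* or *Tet2* in mice gives stem cells an advantage over their neighbors. The counts measure RNA, and neither mutations nor DNA methylation nor protein were measured in these libraries.

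In mm10 coordinates, *Dnmt1* lies at chr9:20907209-20959888 on the minus strand, *Dnmt3a* at chr12:3806007-3914443 on the plus strand and *Dnmt3b* at chr2:153649450-153687730 on the plus strand. *Tet1* lies at chr10:62804570-62908996, *Tet2* at chr3:133463679-133545139 and *Tet3* at chr6:83362373-83459084, all on the minus strand. *Asxl1* (chr2:153345829-153404007, plus strand) is on the same chromosome as *Dnmt3b*. *Ezh1* (chr11:101191115-101226463), *Ezh2* (chr6:47530139-47595341) and *Kmt2a* (chr9:44803355-44881296) are on the minus strand. Each of the 10 is annotated as protein coding.

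*Il27ra* was examined before the 10 genes, because it checks the genotype labels. In LT-HSC after PBS it reached 17.1 CPM (counts normalized to library size, with TMM factors) in the WT library, 42.7, 24.1 and 25.6 in Het and 9.4, 6.9 and 16.3 in KO. After Ang II it reached 42.9 and 51.8 in WT, 30.2, 25.5, 27.1 and 32.8 in Het and 16.3, 11.7, 16.2 and 19.3 in KO. KO LT-HSC libraries were thus below Het libraries after either infusion, but none was at 0, and the PBS WT library was close to the highest PBS KO library. KO LT-HSC were lower than WT after Ang II (log2 fold change −1.56, SE 0.319, adjusted p = 0.0195), also without both libraries labelled KO LT-HSC replicate 2 (log2 −1.45, SE 0.304, adjusted p = 0.00955), which are described next. In HPC-1 the gene was low, at 4.6 to 11.1 CPM in KO, and reached 16.5 in Het, so the genotypes overlapped and it could not check their labels.

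Cell type labels were checked with marker lists. The summed CPM of 10 stem cell markers (such as *Procr*, *Slamf1* and *Hlf*) was 245.9 to 2097.8 in LT-HSC (median 1654.7) and 120.5 to 330.2 in HPC-1 (median 197.1), and 10 of 10 were higher in LT-HSC, with *Hlf* the most abundant (median 462.4 against 119.3 CPM). Of 8 markers of multipotent progenitors, 7 were lower in LT-HSC, with *Cd34* the most abundant (105.4 against 653.2 CPM). The library labelled PBS KO LT-HSC replicate 2 went against its label: its stem cell sum was 245.9, its progenitor sum 2003, its *Slamf1* 2.4 CPM and its *Cd48* 62.6 CPM, all inside the HPC-1 range. The library labelled Ang II KO LT-HSC replicate 2 lay between in its stem cell sum (841.6) and its progenitor sum (450.2). Its granulocyte sum of 6071.2 was inside the HPC-1 range (2431.3 to 7275.6). In the other 15 LT-HSC libraries these sums were 1188 to 2097.8, 61.7 to 335.5 and 27.7 to 964.4. The granulocyte sum of that library held 2182.1 CPM of *S100a9* and 1593.9 CPM of *Ltf*, which reached at most 82.9 and 44 CPM in HPC-1, and 1109.6 CPM of *Mpo*. The cell type differences of the 10 genes, pooled over infusion and genotype, are given with and without both libraries. So are the differences shown by library between KO and other LT-HSC groups, and the correlations between members. Cell type differences within a single combination of infusion and genotype, and those of the marker and wider gene lists, are over all libraries.

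Other marker lists differed between single libraries, genotypes, cell types or depths. Intestinal genes stood out in the WT LT-HSC libraries, where *Agr2* reached 33.3, 28.9 and 22.9 CPM, and in Ang II WT HPC-1 replicate 3 (31.2 CPM), with at most 6.7 CPM elsewhere. The summed intestinal list was 896.9, 835.9 and 823.7 in the WT LT-HSC libraries, against a median of 538.5 over all LT-HSC, and its most abundant gene, *Muc13*, was at similar levels in LT-HSC and HPC-1 (428.7 and 431.7 CPM). Erythroid genes summed to 3070.1 CPM in PBS KO LT-HSC replicate 3, 2848.9 in the library labelled Ang II KO LT-HSC replicate 2, 832.4 in PBS Het LT-HSC replicate 3, and at most 493.4 in other LT-HSC libraries, and the median was lower in LT-HSC (77) than in HPC-1 (109). Of the 8 erythroid genes 5 were called higher in LT-HSC, against the order of these medians, and of the 8 granulocyte genes 1 was higher and 4 were lower, with *Mpo* at 4.7 against 4798.6 CPM. Megakaryocyte genes (5 of 5) were higher in LT-HSC, as were 3 of 6 stromal genes with 1 lower, while 0 of the 2 tested B lymphoid and 1 of the 2 tested T lymphoid genes passed (the last one lower). Y-linked genes had no or almost no counts in 8 LT-HSC and 4 HPC-1 libraries, among them each library above 4 M counts (7 and 4) and no WT library. The only shallower library among them was PBS Het LT-HSC replicate 2 (0.3 CPM). Depth and Y-linked expression can thus hardly be told apart, and WT is found among the shallower libraries only. PBS Het LT-HSC replicate 2 stood apart in the number of genes with a count, 26187 at 2.56 M counts, against at most 22742 in any other library. The part of this in the PBS Het comparisons was not tested.

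All 10 genes were well covered, with 85 counts in the lowest library for *Ezh1* and 7756 in the highest for *Kmt2a*. Levels of different genes were compared as CPM per kilobase of exon. In LT-HSC the highest medians were those of *Dnmt1* (67.5, range 51.3 to 109) and *Kmt2a* (61.8, 38.8 to 78.4), whose ranges overlapped. *Asxl1* (23.7), *Ezh2* (19) and *Dnmt3b* (17.7) followed, then *Tet3* (12.9), *Dnmt3a* (12.3) and *Ezh1* (12), which did not differ beyond their spread, and *Tet1* (8.78) and *Tet2* (7.09) were lowest. In HPC-1 *Dnmt1* (123, 77.1 to 169) was above each *Kmt2a* value (43.2, 30.7 to 67.3), and *Ezh2* (34.4) stood above *Asxl1* (26.7), with overlapping ranges. *Dnmt3b* (19.8), *Tet3* (16.5), *Dnmt3a* (11.4) and *Tet2* (9.9) came next, and *Ezh1* (7.79) and *Tet1* (6.39) were lowest. The order of medians thus differed between the cell types, for instance for *Ezh2* and *Asxl1* and for *Tet1* and *Tet2*. On this scale *Tet2* exceeded 64.9% of the genes tested in LT-HSC and *Tet1* 62.3% in HPC-1, the lowest shares of the 10.

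The cell type comparison asked whether stem cells and more committed progenitors differ in these genes, over the 5 combinations of infusion and genotype with at least 2 libraries per cell type. Relative to HPC-1, LT-HSC had less *Ezh2*, *Dnmt1*, *Tet2*, *Tet3* and *Asxl1* RNA and more *Tet1*, *Kmt2a* and *Ezh1* RNA, while *Dnmt3a* and *Dnmt3b* did not pass in this fit. So 5 of 10 were lower, where 18.4% of all 18013 genes tested were, and 3 of 10 were higher, where 17.9% of all genes were. The differences were moderate, with log2 fold changes of −0.74 to 0.36 and a median of −0.20, beside 0.027 for all genes tested. In these pooled cells, fewer cells that express a gene and less of its RNA per cell cannot be told apart. Without the libraries labelled KO LT-HSC replicate 2 (PBS and Ang II) the counts were again 5 lower and 3 higher, beside 19.6% and 18.7% of 17945 genes. The log2 fold changes were then −0.48 for *Tet2*, −0.33 for *Tet3*, −0.23 for *Asxl1*, 0.43 for *Tet1*, 0.43 for *Kmt2a* and 0.41 for *Ezh1*, and those of the other genes are given below.

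**Figure D1:**
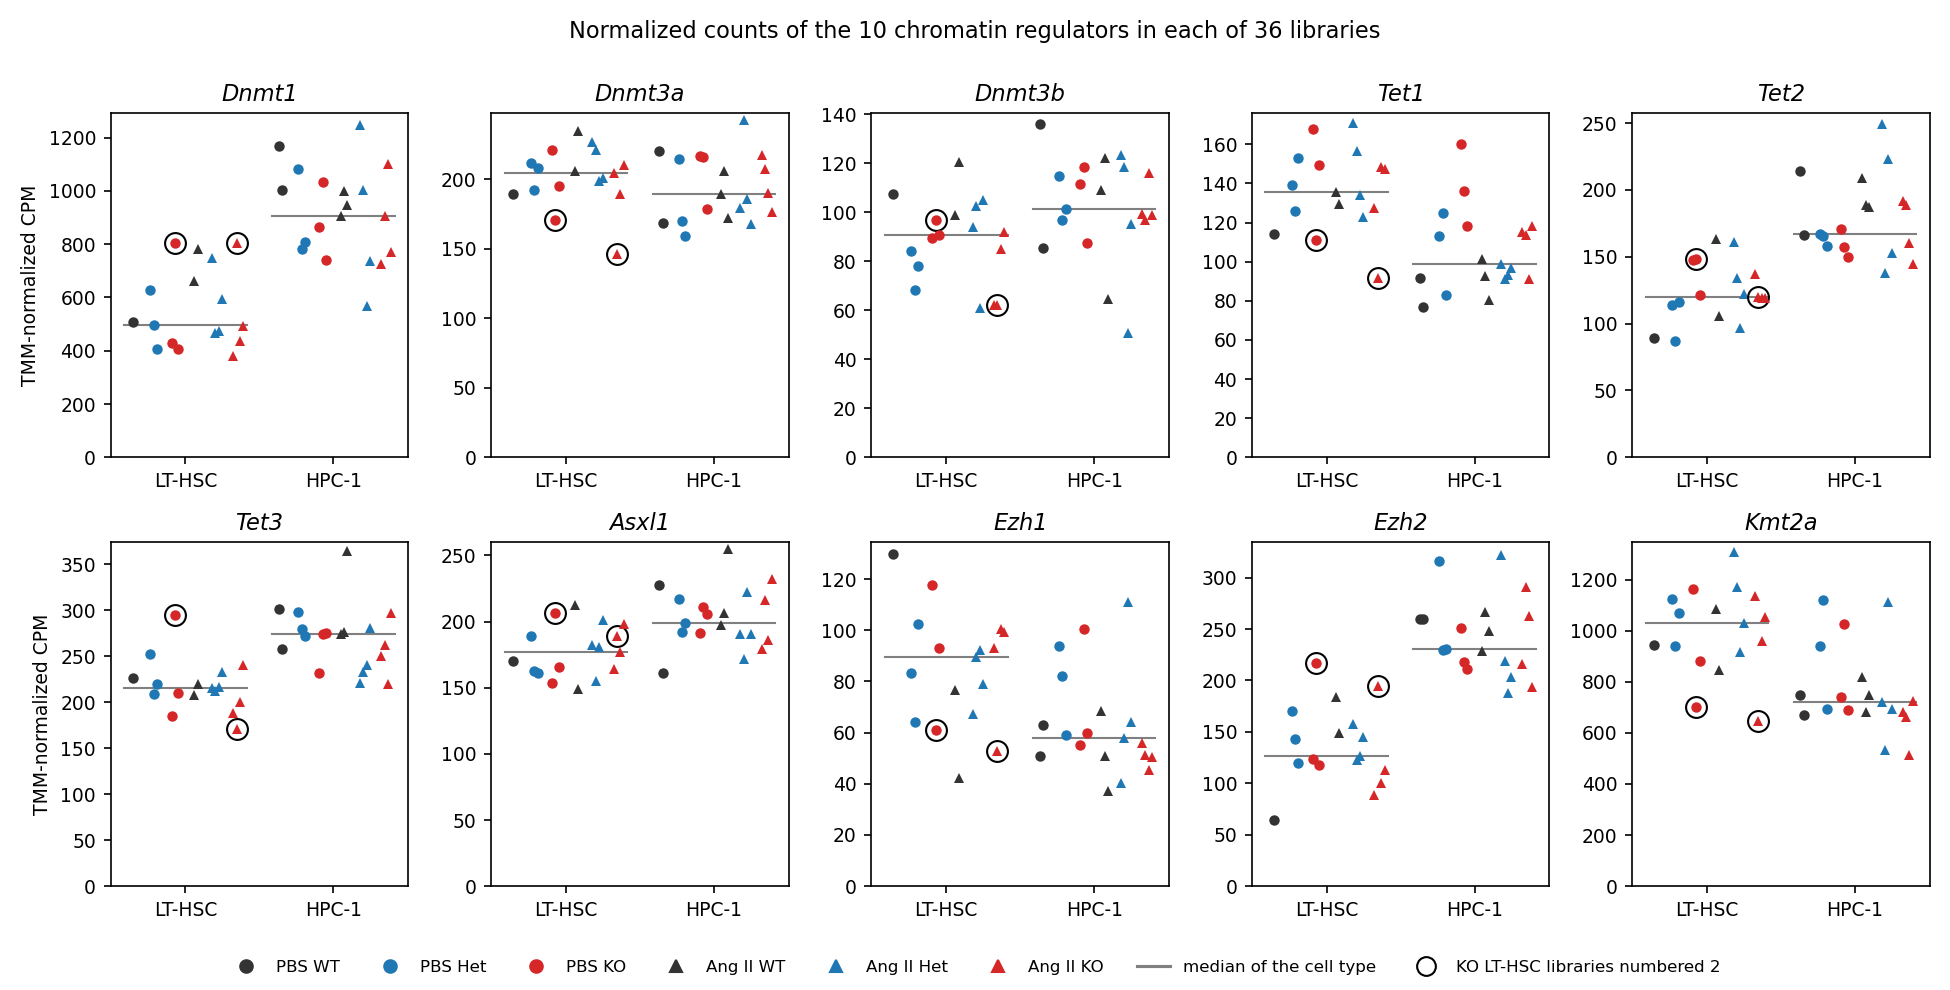
TMM-normalized CPM (y axis) of each of the 10 genes in 17 LT-HSC and 19 HPC-1 libraries (x axis), 1 point per library, with circles for PBS, triangles for Ang II, colors for genotype, a line at the median of the cell type and rings around the libraries labelled KO LT-HSC replicate 2. *Ezh2* and *Dnmt1* lie lower in LT-HSC (medians 126.7 and 498.2 CPM) than in HPC-1 (230.1 and 907.1 CPM), and the ringed libraries are among the highest LT-HSC values of both.

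Among the DNA methyltransferases, the maintenance enzyme gene passed the test, and the call of *Dnmt3b* depended on the model. *Dnmt1* was 378.7 to 804.5 CPM in LT-HSC (median 498.2) and 568.7 to 1248 CPM in HPC-1 (median 907.1). Each of the 17 LT-HSC libraries was below the HPC-1 median and 10 were below the lowest HPC-1 library, so the groups overlapped in part. The highest LT-HSC values, 804.5 and 803.2 CPM, belonged to the libraries labelled KO LT-HSC replicate 2, after PBS and Ang II. *Dnmt1* was 1.57-fold lower in LT-HSC (log2 −0.65, SE 0.121, adjusted p = 6.08e-05), and the log2 fold change was −0.78 (SE 0.0955) without both libraries. *Dnmt3a*, the de novo enzyme gene mutated most often in clonal hematopoiesis, was 146.3 to 234.9 CPM in LT-HSC (median 204.9) and 159.5 to 242.8 CPM in HPC-1 (median 189.5). The lowest LT-HSC values, 146.3 and 170.5 CPM, were those of the libraries labelled KO LT-HSC replicate 2, and the other 15 were at 189.3 to 234.9 CPM, within the HPC-1 range. The log2 fold change of *Dnmt3a* was 0.08 (95% interval −0.07 to 0.23, adjusted p = 0.483), and 0.12 without both libraries (adjusted p = 0.198). It was 0.04 to 0.24 over 13 alternatives, with no call, and 0.06 to 0.19 with 1 library left out, where *Dnmt3a* was called higher only without PBS Het HPC-1 replicate 1 (log2 0.19, adjusted p = 0.0378; range 0.0378 to 0.672). *Dnmt3b*, its paralog, was 61 to 120.4 CPM in LT-HSC (median 90.6) and 50.8 to 136.1 CPM in HPC-1 (median 101.3), with a log2 fold change of −0.21 (95% interval −0.42 to 0.01, adjusted p = 0.139), and −0.19 without both libraries (adjusted p = 0.175). With replicate number as a block, *Dnmt3b* was called lower in LT-HSC (log2 −0.24, SE 0.0795, adjusted p = 0.0166), and over 13 alternatives the adjusted p was 0.0166 to 0.544. The labels do not say whether replicate numbers pair libraries, and in 4 of 17 pairs of the same number only 1 library had Y-linked counts.

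The TET genes differed in opposite directions. *Tet2* was 86.8 to 163.2 CPM in LT-HSC (median 119.6) and 137.8 to 249.2 CPM in HPC-1 (median 167.1). All 17 LT-HSC libraries were under the HPC-1 median and 13 were under the lowest HPC-1 library, and *Tet2* was lower in LT-HSC (log2 −0.48, SE 0.0873, adjusted p = 2.28e-05). *Tet3* was 170.5 to 294.6 CPM in LT-HSC (median 215.4) and 219.9 to 364.5 CPM in HPC-1 (median 274.8). Of the LT-HSC libraries 16 were under the HPC-1 median, and the exception at 294.6 CPM was the library labelled PBS KO LT-HSC replicate 2. *Tet3* was lower in LT-HSC (log2 −0.31, SE 0.0728, adjusted p = 0.000799). *Tet1*, in contrast, was 91.9 to 171.1 CPM in LT-HSC (median 135.8) and 76.7 to 160 CPM in HPC-1 (median 98.7). Here 16 of 17 LT-HSC libraries were above the HPC-1 median, the exception at 91.9 CPM being the library labelled Ang II KO LT-HSC replicate 2, and only 2 were above the highest HPC-1 library. *Tet1* was higher in LT-HSC (log2 0.36, SE 0.0831, adjusted p = 0.000489). In the 11 libraries with over 4 M counts, an analysis chosen after seeing the data, 5 calls were lost while the directions were kept: *Tet2* (log2 −0.34, adjusted p = 0.0982), *Tet3* (−0.29, adjusted p = 0.165), *Tet1* (0.44, adjusted p = 0.0525), *Dnmt1* (−0.62, adjusted p = 0.0739) and *Asxl1* (−0.19, adjusted p = 0.32). Over 13 alternatives the lowest adjusted p were 1.54e-06, 8.09e-05, 1.13e-06, 3.82e-13 and 0.0132, and these were the highest. Without the library labelled PBS KO LT-HSC replicate 2, the same subset called *Tet2* (log2 −0.38, adjusted p = 0.016), *Tet3* (−0.36, adjusted p = 0.0156), *Tet1* (0.49, adjusted p = 0.00237) and *Dnmt1* (−0.76, adjusted p = 0.000139), but not *Asxl1* (−0.23, adjusted p = 0.1).

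The Polycomb methyltransferase genes moved apart. *Ezh2*, the subunit gene that dominates in dividing cells, was 64.7 to 217.4 CPM in LT-HSC (median 126.7) and 188.1 to 321.6 CPM in HPC-1 (median 230.1). All 17 LT-HSC libraries were below the HPC-1 median and 15 were below the lowest HPC-1 library. Those that were not, at 217.4 and 194.2 CPM, were the libraries labelled KO LT-HSC replicate 2, and without them the highest LT-HSC library was at 183.9 CPM, below the lowest HPC-1 library. None of the 10 genes was free of overlap over the 17 LT-HSC libraries, where 0.0944% of all genes were, and over the other 15 only *Ezh2* was, where 3.84% of all genes were. *Ezh2* was 1.67-fold lower in LT-HSC (log2 −0.74, SE 0.104, adjusted p = 2.86e-07), and the log2 fold change was −0.86 (SE 0.0849) without both libraries. *Ezh1*, more typical of quiescent cells, was 42.3 to 129.8 CPM in LT-HSC (median 89.5) and 37.3 to 111.2 CPM in HPC-1 (median 58), with 15 of 17 LT-HSC libraries above the HPC-1 median but wide overlap. *Ezh1* was higher in LT-HSC (log2 0.33, SE 0.132, adjusted p = 0.0483), close to the threshold, and this call was lost in 18 of 36 fits that left out 1 library (adjusted p 0.00777 to 0.226), with replicate number as a block (log2 0.29, adjusted p = 0.1) and in libraries under 4 M counts (log2 0.24, adjusted p = 0.366). In libraries over 4 M counts the log2 fold change of *Ezh1* was 0.64 (adjusted p = 0.0351), and 0.71 (adjusted p = 0.000285) without the library labelled PBS KO LT-HSC replicate 2, so that it ranged from 0.24 to 0.71 over 13 alternatives. The ratio of *Ezh2* to *Ezh1* CPM was 0.5 to 3.69 in LT-HSC (median 1.38) and 1.69 to 7.94 in HPC-1 (median 3.87). Without both libraries labelled KO LT-HSC replicate 2 it was 0.5 to 3.52 in LT-HSC (median 1.37).

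*Asxl1*, the gene of the BAP1 partner, was 149.3 to 212.3 CPM in LT-HSC (median 176.7) and 161.2 to 254.8 CPM in HPC-1 (median 198.7). The groups overlapped for most libraries, with 3 of 17 LT-HSC libraries below the HPC-1 range. *Asxl1* was lower in LT-HSC (log2 −0.20, SE 0.0734, adjusted p = 0.029), but DESeq2 and upper-quartile scaling did not call it (adjusted p = 0.114 and 0.0979), nor did 14 of the 36 fits that left out 1 library (adjusted p 0.00864 to 0.289). *Kmt2a* was 646.1 to 1306.7 CPM in LT-HSC (median 1029.9) and 511.7 to 1121.1 CPM in HPC-1 (median 720.9). In LT-HSC 15 of 17 libraries were above the HPC-1 median and 5 were above the highest HPC-1 library, and the lowest values, 700.3 and 646.1 CPM, were again those of the libraries labelled KO LT-HSC replicate 2. *Kmt2a* was higher in LT-HSC (log2 0.36, SE 0.096, adjusted p = 0.00265).

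**Figure D2:**
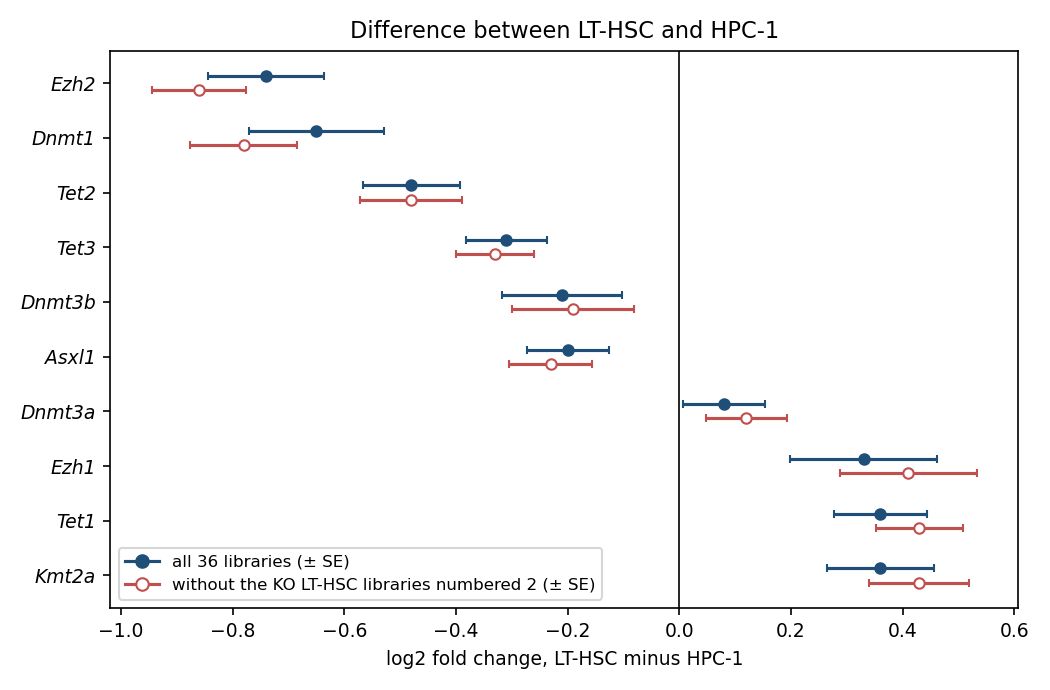
Log2 fold change between LT-HSC and HPC-1 (x axis) of the 10 genes (y axis), with bars of 1 SE, over all 36 libraries (filled) and without the libraries labelled KO LT-HSC replicate 2 (open). *Ezh2* is lowest (−0.74 and −0.86), and the genes with positive values that passed the test are *Ezh1*, *Tet1* and *Kmt2a*.

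Proliferation genes moved with the cell types. The summed CPM of 20 cell cycle genes was 2535 to 6781.6 in LT-HSC (median 3421.5) and 5315 to 8715.6 in HPC-1 (median 6895.4), and 20 of 20 were lower in LT-HSC, with a median log2 fold change of −0.86. *Mki67*, the most abundant, had a median of 1227.3 CPM in LT-HSC and 2401.1 CPM in HPC-1. The highest LT-HSC sums, 6270.2 and 6781.6 CPM, were those of the libraries labelled KO LT-HSC replicate 2 after PBS and Ang II, which also held the highest *Dnmt1* and *Ezh2* values. In the other 15 LT-HSC libraries the sum was 2535 to 4524.2 CPM. The part of the cell cycle in the differences of *Dnmt1* and *Ezh2* was not tested.

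Within the 5 combinations of infusion and genotype, 8 of the 10 genes kept the same direction in 5 of 5, namely *Ezh2* (log2 −0.96 to −0.57), *Dnmt1* (−0.80 to −0.40), *Tet2* (−0.63 to −0.20), *Tet3* (−0.51 to −0.16), *Asxl1* (−0.28 to −0.11), *Kmt2a* (0.16 to 0.56), *Tet1* (0.05 to 0.62) and *Ezh1* (0.09 to 0.77). They are the genes called in the pooled comparison, which is the mean of these 5 differences in the same fit. The shared direction is thus partly built in, and the share of all genes that have it was not counted. In PBS Het, *Tet2* and *Ezh2* were lower in LT-HSC (adjusted p = 0.0448 and 0.0228), so 2 of 10 passed where 7.67% of all genes did. In PBS KO, which holds a library that goes against its label, edgeR called 0 of 10 and 0.883% of all genes, with 2 of 10 at an unadjusted p under 0.05, where 10.8% of all genes were. In Ang II WT it called 0 of 10 and 10.4% of all genes, with 4 of 10 at an unadjusted p under 0.05, where 25.6% of all genes were. In Ang II Het, *Tet1* was higher (log2 0.62, adjusted p = 0.00826) and *Tet2* and *Ezh2* were lower, so 3 of 10 passed where 14.9% of all genes did. In Ang II KO, *Ezh2* (log2 −0.96, adjusted p = 0.00138) and *Dnmt1* were lower and *Ezh1* and *Kmt2a* were higher, so 4 of 10 passed where 12.5% of all genes did. These calls summed to 9, and to 15 without the library labelled PBS KO LT-HSC replicate 2, to 5 without Ang II KO LT-HSC replicate 3, and to 1 in libraries under 4 M counts. PBS WT has 1 LT-HSC library and was not tested, and there *Ezh2* was 64.7 CPM in LT-HSC, the lowest of all 36 libraries, against 259.7 and 259.3 CPM in HPC-1. Whether the cell type difference itself depends on genotype was not tested.

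The Ang II comparisons asked whether infusion of the hormone changed these genes within a cell type and genotype. None of the 10 passed the test in any of the 5 comparisons, and edgeR called no other gene either (0% of 16365 in LT-HSC and 0% of 13199 in HPC-1). Also, 0 of 10 reached an unadjusted p under 0.05 in each of the 5, where 0.917% to 4.93% of all genes did, and DESeq2 called 0 of 10, with 1 at an unadjusted p under 0.05. *Dnmt3a* in Het LT-HSC was 211.8, 192.4 and 208.2 CPM after PBS and 226.7, 221.2, 199.1 and 200.8 CPM after Ang II. In KO LT-HSC it was 221.5, 170.5 and 195.4 CPM after PBS and 204.9, 146.3, 189.4 and 210.7 CPM after Ang II. The lowest KO value after either infusion was that of the library labelled replicate 2, and PBS and Ang II values overlapped in either genotype with or without it. The log2 fold changes of *Dnmt3a* were 0.04 in Het (95% interval −0.26 to 0.34) and −0.07 in KO (−0.37 to 0.24), and −0.06 in KO without both libraries (−0.38 to 0.25). *Tet2* in Het LT-HSC was 114.1, 86.8 and 116.5 CPM after PBS and 160.7, 134.4, 96.7 and 121.8 CPM after Ang II. These values overlapped too, and the log2 fold change was 0.26 (95% interval −0.13 to 0.66). The smallest p belonged to *Tet1* in KO HPC-1, at 160, 136.3 and 118.3 CPM after PBS and 115, 113.4, 91.3 and 118.1 CPM after Ang II. There each Ang II library was below each PBS library, with 118.1 and 118.3 CPM as the nearest values, and the share of all genes that separate so was not counted. The log2 fold change was −0.34 (95% interval −0.69 to 0.01, adjusted p = 1).

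*Ezh1* in KO HPC-1 was 55.1, 100.6 and 60 CPM after PBS and 55.9, 51.1, 45.5 and 50.3 CPM after Ang II. The value of 100.6 CPM stood apart, and the log2 fold change of −0.51 did not pass (95% interval −1.08 to 0.06). *Kmt2a* in the same cells was 740.3, 1026.4 and 690.7 CPM after PBS and 679.9, 662.6, 511.7 and 725.5 CPM after Ang II (log2 −0.35, 95% interval −0.78 to 0.08). PBS KO HPC-1 replicate 2 thus held the highest value of its group for both genes. The interactions asked whether the Ang II response differed between KO and Het in LT-HSC or in HPC-1, and between the cell types. None of the 10 passed in any of the 3, nor did any other gene by edgeR (0%), and 0 of 10 had an unadjusted p under 0.05 by edgeR, with 0 calls by DESeq2 in both of those between genotypes. The interaction of *Dnmt3b* in LT-HSC was −0.53 (95% interval −1.09 to 0.04), and −0.41 without both libraries (−1 to 0.17), and that of *Kmt2a* between cell types was 0.37 (−0.04 to 0.79).

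The genotype comparisons asked whether the genes depended on *Il27ra*. None of the 10 passed in any of the 10 comparisons by edgeR, and 3 of these tests had an unadjusted p under 0.05. These were 1 of 10 genes each between KO and WT LT-HSC after Ang II, KO and WT HPC-1 after PBS, and Het and WT HPC-1 after Ang II, where 17.7%, 6.55% and 7.39% of all genes had such a p, so these counts are close to what the shares of all genes give. In LT-HSC after Ang II, 1.69% of 16365 genes were called between KO and WT and 0.831% between Het and WT, which share the WT libraries, and 0% between KO and Het. In HPC-1 after PBS, 0.0152% of 13199 genes were called between KO and WT, and 0% in the other HPC-1 comparisons and between PBS KO and PBS Het LT-HSC. Over the 15 comparisons and both interactions between genotypes, which are 170 tests of a member, edgeR called 0, with 3 at an unadjusted p under 0.05, and DESeq2 called 0, with 5. DESeq2 with Y-linked expression as a covariate called 1, *Tet1* in PBS HPC-1.

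*Dnmt1* in Ang II LT-HSC was 660.6 and 782.9 CPM in WT, 750, 468.2, 475.8 and 594.8 CPM in Het and 378.7, 803.2, 435.3 and 491.4 CPM in KO. *Ezh2* in the same libraries was 183.9 and 148.8 CPM in WT, 157.4, 122.4, 126.7 and 145.5 CPM in Het and 88.4, 194.2, 100.4 and 113 CPM in KO. For both genes each KO library except replicate 2 was below each WT library, and that replicate was above them. With all libraries the log2 fold change between KO and WT was −0.44 for *Dnmt1* (95% interval −1.11 to 0.24, adjusted p = 0.494) and −0.41 for *Ezh2* (−1.02 to 0.19, adjusted p = 0.473). Without the libraries labelled KO LT-HSC replicate 2, *Dnmt1* (log2 −0.73, adjusted p = 0.0346) and *Ezh2* (log2 −0.72, adjusted p = 0.0266) were lower in KO, so 2 of 10 passed where 4.4% of 16205 genes did. These are the calls of 1 of 7 alternatives, and the other 6 gave 0 in the LT-HSC genotype comparisons. Leaving out 1 library at a time, Ang II KO replicate 2 among them, also gave 0 calls there. The PBS library is in neither compared group but enters the spread shared in the fit, and the SE of *Dnmt1* was 0.318 with all libraries and 0.194 without both. Leaving out both was chosen after seeing the data, and it removed the Ang II KO library highest for both genes. Between KO and Het after Ang II, leaving out both libraries moved *Dnmt1* from −0.11 to −0.40 (95% interval −0.74 to −0.06) and *Ezh2* from −0.15 to −0.46 (−0.78 to −0.14). Neither passed after adjustment. The Ang II WT libraries compared with KO held the intestinal genes named above, and their cell cycle sums were 3483.6 and 4524.2 CPM, against 2535, 6781.6, 2882.8 and 3421.5 CPM in KO. The part of either in these differences was not tested. In the PBS WT LT-HSC library, with 508.3 CPM of *Dnmt1* and 64.7 CPM of *Ezh2*, neither gene was at the level of the Ang II WT libraries.

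*Dnmt3b* in Ang II LT-HSC was 98.7 and 120.4 CPM in WT, 93.8, 102.6, 61 and 105 CPM in Het and 62.1, 62.1, 85.1 and 91.8 CPM in KO. KO libraries were all below WT libraries, but the difference did not pass after adjustment (log2 −0.52, SE 0.214, adjusted p = 0.203), nor without both libraries labelled KO LT-HSC replicate 2 (log2 −0.45, adjusted p = 0.237). How many of all genes separate such small groups was not counted, here or for *Tet1* below. *Tet1* in PBS HPC-1 was 91.7 and 76.7 CPM in WT, 113.2, 124.9 and 82.8 CPM in Het and 160, 136.3 and 118.3 CPM in KO. Each KO library was above each WT library, and Het overlapped both. The log2 fold change of *Tet1* between KO and WT was 0.71 (SE 0.212) and did not pass by edgeR (adjusted p = 0.54). DESeq2 on the compared groups with Y-linked expression as a covariate called it (log2 0.79, adjusted p = 0.022), beside 7.76% of the 2656 genes that received an adjusted p, and over 6 alternatives the adjusted p was 0.022 to 0.518. Of the alternatives, this is the closest to the model in the study's methods, which used DESeq2 with mouse gender as a factor, for which Y-linked expression stands in because the labels do not give it. Among the compared libraries, however, only PBS KO replicate 3 lacked Y-linked counts. The covariate thus mostly stands for that library, which held the lowest *Tet1* value of the KO group (118.3 CPM). *Tet3* in Ang II HPC-1 was 274.8, 276.2 and 364.5 CPM in WT, 221.5, 233.2, 240.7 and 281.2 CPM in Het and 250.9, 261.9, 219.9 and 296.9 CPM in KO. The WT value of 364.5 CPM came from the HPC-1 library with intestinal genes, and the log2 fold change between Het and WT was −0.35 (SE 0.152, adjusted p = 0.649).

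*Dnmt3a* and *Asxl1* varied least over the 15 comparisons within a cell type, with log2 fold changes of −0.22 to 0.17 and −0.21 to 0.20, and 95% intervals that extended to at most 0.56 and 0.59 in size. *Tet2* ranged from −0.26 to 0.39 and *Kmt2a* from −0.35 to 0.37. *Ezh1* had the widest intervals, which extended to 1.19, and log2 fold changes of −0.51 to 0.55. Differences inside these intervals cannot be told apart from no difference with this number of libraries. These ranges are over all libraries. Without both libraries labelled KO LT-HSC replicate 2, *Ezh1* between KO and WT LT-HSC after Ang II was at 0.72 in place of 0.55. Its 95% interval (0.22 to 1.22) then lay above no difference, but it did not pass after adjustment (adjusted p = 0.0865).

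**Figure D3:**
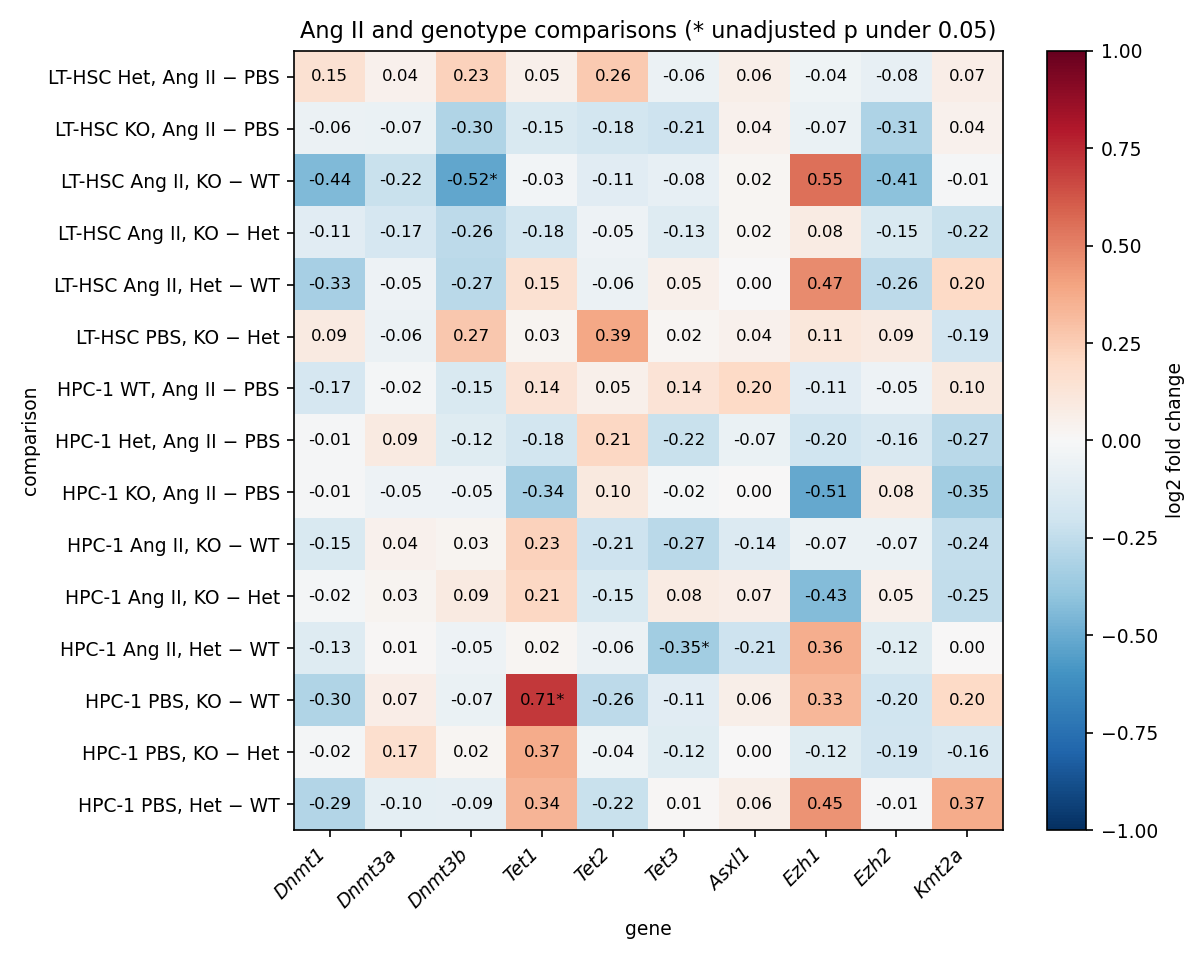
Log2 fold changes (color and numbers) of the 10 genes (x axis) in the 15 comparisons by infusion or genotype within a cell type (y axis), with an asterisk at an unadjusted p under 0.05. The asterisks mark *Dnmt3b* (−0.52), *Tet1* (0.71) and *Tet3* (−0.35), and none of the values passed after Benjamini-Hochberg adjustment.

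Other genes of the same machineries were examined as lists, and their calls in the cell type comparison were counted, to be read beside the 17.9% of all genes tested that were higher and the 18.4% that were lower. Of 13 tested genes of the DNA methylation machinery, 1 was higher and 7 were lower in LT-HSC (median log2 fold change −0.31, *Dnmt3l* not tested). *Uhrf1*, which guides DNMT1 to newly replicated DNA, was 91 to 325.9 CPM in LT-HSC (median 144.2) and 171.6 to 356.4 CPM in HPC-1 (median 287), and was lower in LT-HSC (log2 −0.78, SE 0.139, adjusted p = 3.83e-05). Lower too were *Idh2* (log2 −0.84, adjusted p = 1.24e-08) and *Idh1* (−0.92, adjusted p = 1.57e-05), whose enzymes make the cofactor of the TET enzymes, and *Mbd4* (−0.68, adjusted p = 1.39e-05), a DNA glycosylase gene. Of 25 Polycomb genes, 7 were higher and 6 were lower (median −0.10). *Cbx6* (0.97, adjusted p = 1.77e-06) and *Cbx7* (1.26, adjusted p = 2.34e-06), which encode chromodomain readers, and *Phf1* (1.48, adjusted p = 1.89e-06), which encodes an accessory subunit, were higher in LT-HSC. *Rbbp4*, which encodes a histone-binding core subunit, was lower (−0.47, adjusted p = 2.39e-06).

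Of 10 ASXL and BAP1 partners, 1 was higher and 2 were lower (median 0.13). These counts are near the shares of all genes, and the genes were *Foxk1*, a forkhead factor gene (0.34, adjusted p = 0.00097), *Hcfc1*, which encodes a host cell factor that binds BAP1 (−0.30, adjusted p = 0.000559), and *Asxl2*, the paralog of *Asxl1* (−0.28, adjusted p = 0.00484). Of 16 MLL and COMPASS genes, 4 were higher and 6 were lower (median −0.06). *Mllt3*, a fusion partner of *KMT2A* in leukemia that supports stem cell maintenance, was 36 to 279.2 CPM in LT-HSC (median 193.7) and 2.6 to 40.8 CPM in HPC-1 (median 30.8), and was higher in LT-HSC (log2 2.66, SE 0.248, adjusted p = 5.53e-09). *Dot1l* (−0.49, adjusted p = 2.78e-05) and *Setd1a* (−0.44, adjusted p = 4.74e-05), histone methyltransferase genes, and *Ash2l*, which encodes a core COMPASS subunit (−0.35, adjusted p = 0.00172), were lower. Of 26 other clonal hematopoiesis genes, 2 were higher and 14 were lower (median −0.24). *Jak2*, a cytokine receptor kinase gene, was higher (0.65, adjusted p = 6.62e-07), as was *Bcorl1*, a corepressor gene (0.61, adjusted p = 7.65e-07), while *Smc3* (cohesin, −0.48, adjusted p = 3.35e-05) and *Sf3b1* (splicing, −0.36, adjusted p = 3.47e-05) were lower. Of the 20 cell cycle genes the smallest adjusted p were those of *Cdc6* (−1.11, adjusted p = 4.32e-09), *Mcm4* (−0.80, adjusted p = 2.31e-08), *Mcm6* (−0.78, adjusted p = 7.04e-08) and *Mcm2* (−0.75, adjusted p = 1.91e-07), which act in licensing of replication. The median of all genes tested was 0.027, and each list but that of ASXL and BAP1 partners had a median below it.

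In the 15 comparisons within a cell type and the interactions, the lists held a single called gene, *Zbtb33*, which is in the DNA methylation and in the other clonal hematopoiesis list and is named because it passed, in a comparison where 1.69% of all 16365 genes did. It encodes Kaiso, a methyl-CpG binding factor. *Zbtb33* was 12.9 to 27 CPM in the WT and 36.3 to 64.4 CPM in the KO LT-HSC libraries after Ang II. These groups did not overlap, but the share of all genes without overlap there was not counted. The gene was higher in KO (log2 1.30, SE 0.325, adjusted p = 0.0474), also without both libraries labelled KO LT-HSC replicate 2 (log2 1.40, SE 0.323, adjusted p = 0.0162). The log2 fold change between KO and Het was 0.16. Between Het and the same WT libraries it was 1.14 and did not pass (edgeR, adjusted p = 0.0994, and 0.0524 without both libraries). These WT libraries are those with summed intestinal genes of 835.9 and 823.7 CPM, against 470.9 to 538.5 CPM in KO, whose part in the difference was not tested.

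The 10 genes varied together in part among libraries of 1 cell type. Over the 17 LT-HSC and the 19 HPC-1 libraries, Pearson's r of log2 CPM between *Dnmt1* and *Ezh2* was 0.73 and 0.78, and that between *Ezh1* and *Kmt2a* was 0.49 and 0.73. Without both libraries labelled KO LT-HSC replicate 2, a choice made after seeing the data, the values over the other 15 LT-HSC libraries were 0.61 and 0.20. *Ezh1* ran against *Ezh2* (−0.73 and −0.34, and −0.65 in the 15 LT-HSC libraries) and against *Dnmt1* (−0.78 and −0.39, and −0.71 in the 15). *Tet1* and *Kmt2a* had an r of 0.80 in LT-HSC (0.56 in the 15) and 0.36 in HPC-1, and *Dnmt3a* and *Kmt2a* one of 0.79 (0.44 in the 15) and −0.12. Among 12925 genes, those most like *Dnmt1* in both cell types were *Mcm3* (0.94 and 0.91), *Lig1* (0.94 and 0.90) and *Nasp* (0.89 and 0.91). Those most like *Ezh2* were *Spc25* (0.87 and 0.80), *Clspn* (0.82 and 0.80) and *Atad5* (0.85 and 0.79), and those most like *Kmt2a* were *Kmt2c* (0.86 and 0.87), *Nfat5* (0.85 and 0.83) and *Helz* (0.86 and 0.78). *Tet2* was most like *Son*, *Nipbl* and *Bod1l*, *Tet1* most like *Ppp1r13b*, *Asah2* and *Sgsm1*, *Tet3* most like *BC037034*, *Foxp4* and *Kmt2b*, and *Ezh1* most like *Fam171a1*, *Clk1* and *Hoxa10*. *Dnmt3b* was most like *Ctnnbl1* (0.76 and 0.86), *Nom1* and *Ddx10*, *Dnmt3a* most like *Ttc3* (0.66 and 0.60), *Abcb1b* and *Bbx*, and *Asxl1* most like *Snx11* (0.63 and 0.66), *Hps1* and *Ndor1*. Without both libraries, 13 of these 30 genes were again among the 3 most alike, and the r of the first named genes in the 15 LT-HSC libraries were 0.91 for *Dnmt1* with *Mcm3*, 0.84 for *Ezh2* with *Spc25* and 0.74 for *Kmt2a* with *Kmt2c*. None of the 3 genes named for *Tet1* or for *Dnmt3a* was among them. These correlations describe the libraries, whose points share library, depth and group, and carry no test.

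Because *Dnmt1* and *Ezh2* varied together and were lower in LT-HSC, and *Ezh1* ran the other way, their promoter windows in RefSeq (GRCm38.p6, 300 bases around a gene start, minus strand, 5′ to 3′) are shown. They were searched on both strands for 4 words of the E2F consensus, TTTCCCGC, TTTGGCGC, TTTCGCGC and TTTGCCGC, and capitals mark a match. All 10 genes had a window, 14 in all, and 2 windows (14.29%), of *Dnmt1* and *Ezh2*, held a match, against 744 of 32851 windows (2.26%) in the whole table. The difference between these shares rests on 2 windows and was not tested. *Dnmt1* had 3 windows, and those at chr9:20959839-20960138, which holds the annotated gene start given above, and chr9:20952930-20953229 held no match. In its window at chr9:20952574-20952873, which lies inside the annotated gene, TTTCGCGC was found on the opposite strand, so that it reads GCGCGAAA, at base 32, and TTTGGCGC at base 284. In the *Ezh2* window at chr6:47594981-47595280, TTTGGCGC was found at base 254. The *Ezh1* window at chr11:101226414-101226713 held no match. A match describes letters in the window only and is not evidence of binding.
Dnmt1, annotated start: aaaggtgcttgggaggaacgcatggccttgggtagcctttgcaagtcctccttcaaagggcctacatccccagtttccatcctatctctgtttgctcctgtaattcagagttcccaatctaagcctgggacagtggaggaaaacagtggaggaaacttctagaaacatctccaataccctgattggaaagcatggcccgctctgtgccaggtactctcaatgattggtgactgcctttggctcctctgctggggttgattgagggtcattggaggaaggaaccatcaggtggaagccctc
Dnmt1, inner start: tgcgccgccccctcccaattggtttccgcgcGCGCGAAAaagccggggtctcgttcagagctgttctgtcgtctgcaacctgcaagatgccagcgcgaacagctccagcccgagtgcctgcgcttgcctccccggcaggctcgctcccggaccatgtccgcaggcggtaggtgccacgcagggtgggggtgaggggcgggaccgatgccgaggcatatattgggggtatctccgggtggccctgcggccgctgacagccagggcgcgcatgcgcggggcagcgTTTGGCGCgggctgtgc
Ezh2: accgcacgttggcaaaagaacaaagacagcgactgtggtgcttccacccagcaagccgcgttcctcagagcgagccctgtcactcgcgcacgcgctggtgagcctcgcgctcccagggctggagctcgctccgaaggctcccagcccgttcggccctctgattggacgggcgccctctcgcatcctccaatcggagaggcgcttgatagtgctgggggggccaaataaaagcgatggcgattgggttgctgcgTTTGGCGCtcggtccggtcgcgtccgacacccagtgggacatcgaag
Ezh1: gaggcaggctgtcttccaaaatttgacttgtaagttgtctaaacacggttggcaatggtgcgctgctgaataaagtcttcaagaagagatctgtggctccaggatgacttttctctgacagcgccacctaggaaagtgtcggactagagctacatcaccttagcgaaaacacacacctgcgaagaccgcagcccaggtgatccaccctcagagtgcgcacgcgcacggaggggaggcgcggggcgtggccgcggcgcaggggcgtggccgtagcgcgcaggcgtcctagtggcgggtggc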

How the data were processed

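The authors sequenced stranded low-input total RNA libraries, estimated gene-level expected counts with RSEM on mm10 and deposited them as whole numbers without normalization. The aligner and the RSEM version differ between the sources (STAR in the methods, Bowtie2 and RSEM 1.2.31 in the submitters' processing notes), and whether counting used strand is not given in the sources used here. Symbols came from a mouse gene table (37570 identifiers, 99.63% of the counts), and exon lengths and positions from GENCODE M21 annotation of mm10. No library was dropped.

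Tests used R 4.3.3 and edgeR 4.0.16 (limma 3.58.1): filterByExpr, TMM scaling, the robust quasi-likelihood F test and Benjamini-Hochberg adjustment over all genes tested, with a threshold of 0.05. Cell types were compared in 1 model of 36 libraries and 12 groups (18013 genes), as the mean over 5 strata, and infusion and genotype in a model per cell type (16365 genes in LT-HSC, 13199 in HPC-1). SE is the size of the log2 fold change over the square root of F. Log2 CPM for correlations used a prior count of 2. All 10 members are named; of each wider list the up to 4 genes with the smallest adjusted p in the cell type comparison are named, and for likeness the 3 genes with the highest smaller r of the LT-HSC and HPC-1 values. The steps were tested on simulated counts. Alternatives were DESeq2 1.42.0, with and without Y-linked expression as a covariate (in place of mouse gender, a factor in the study's own DESeq2 model that the labels do not give), upper-quartile scaling, other filters (a total of 1 count, a mean of 10), replicate number as a block, other strata and subsets of libraries. The members and lists were chosen with earlier results of these data known.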

Additional observations from a re-analysis of the deposited data

Results flagged for a closer look

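In the groups of 4 libraries, a library stood far from the other 3 for 3 of 40 combinations of gene and group. By chance alone such a rule picks about 1 in 20 groups. *Tet2* was 137.2 CPM in Ang II KO LT-HSC replicate 1, while the others were 119 to 119.6 CPM. *Ezh1* was 52.7 CPM in the library labelled Ang II KO LT-HSC replicate 2, while the others were 93.2 to 100.6 CPM; this library also held the high granulocyte, erythroid and cell cycle sums. *Dnmt3b* was 115.9 CPM in Ang II KO HPC-1 replicate 3, while the others were 97 to 99.2 CPM.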

How the results depend on the processing

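Counts of calls, cell type values and, within a cell type, only values with an unadjusted p under 0.05 were followed, and none reversed. Some other values within LT-HSC changed sign without both libraries labelled KO LT-HSC replicate 2. Between KO and Het after PBS, *Dnmt1* moved from 0.09 to −0.3 and *Ezh2* from 0.09 to −0.26. Between Ang II and PBS in KO, *Tet3* moved from −0.21 to 0.07. None of these passed in either fit. The cell type count of 5 lower genes was 1 to 6 over 13 alternatives (4 to 6 with 1 of 36 libraries left out). That of 3 higher genes was 2 to 3 (2 to 4). All genes called were 6543, and 2258 to 6872 (5899 to 6806). The low values, 1 lower gene and 2258 genes, came from libraries over 4 M counts, chosen after seeing the data; without the library labelled PBS KO LT-HSC replicate 2, also chosen after seeing the data, the same subset gave 4 lower, 3 higher and 5605 genes. *Ezh2* (log2 −0.95 to −0.67) and *Kmt2a* (0.36 to 0.48) were called in all 13, *Dnmt1*, *Tet1*, *Tet2* and *Tet3* in all but that subset. *Asxl1* lost its call in 7 of 13 (adjusted p 0.0132 to 0.32). *Ezh1* lost it in 2, with the replicate block (adjusted p = 0.1) and in libraries under 4 M counts (0.366; range 0.000285 to 0.366). *Dnmt3a* (log2 0.19, adjusted p = 0.0378; range 0.0378 to 0.672) was called without PBS Het HPC-1 replicate 1, and *Dnmt3b* (−0.24, adjusted p = 0.0401; range 0.0401 to 0.529) without Ang II Het HPC-1 replicate 3; the cause was not tested. The median log2 fold change of all genes was 0.027, and 0.223 with DESeq2 and 0.077 with upper-quartile scaling; the median shift of a gene was 0.07 and 0.05.

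The calls within strata summed to 9, and to 15 without the library labelled PBS KO LT-HSC replicate 2, 15 without both libraries labelled KO LT-HSC replicate 2 and 1 in libraries under 4 M counts; with 1 library left out they were 5 to 15. The Ang II comparisons and the interactions stayed at 0 under every alternative and with each library left out. The genotype comparisons gave 0 (0 to 0 with 1 library left out), but 2 in LT-HSC without both libraries, and 1 in HPC-1 by DESeq2 with the Y-linked covariate; the cause was not tested. DESeq2 called more genes than edgeR between KO and WT LT-HSC after Ang II (755 against 277), between Het and WT (420 against 136) and between KO and WT HPC-1 after PBS (20 against 2). With the Y-linked covariate DESeq2 called 276, 72 and 206 genes there, and in comparisons where edgeR called 0 it called up to 81 (Het and WT HPC-1 after PBS); the cause was not tested.

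With the replicate block, 6 genes were lower (*Dnmt3b* added, adjusted p = 0.0166; range 0.0166 to 0.544) and 2 higher, and 6241 genes were called. The labels do not say whether replicate numbers pair libraries. Between cell types, the correlation of deviations from the group means had a median of 0.068 for the same number (7 of 16 pairs above 0.1) and −0.022 for other numbers (4 of 40). Within LT-HSC 8 of 27 and 8 of 74 pairs were above 0.1, and within HPC-1 7 of 41 and 9 of 108. In 4 of 17 pairs of the same number only 1 library had Y-linked counts. What the numbers share was not tested.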
